A study of Mus musculus with 5 samples.

Results

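The transforming growth factor beta (TGF-beta) genes examined here were 10 named genes out of the 47729 genes counted in skin ILC2 libraries. They are the 3 ligand genes *Tgfb1*, *Tgfb2* and *Tgfb3* and the receptor genes *Tgfbr1*, *Tgfbr2* and *Tgfbr3*. The others are the signal transducer genes *Smad2* and *Smad3*, the inhibitory *Smad7*, and *Itgb8*, which encodes a subunit of an integrin that activates TGF-beta. All 10 were chosen by gene name, all 10 were found in the count table, and all 10 passed the filter on low counts. RNA came from dermal group 2 innate lymphoid cells (dILC2s) sorted from skin of C57BL/6 mice as CD45+ CD90hi cells without CD2 or CD3 and used fresh, with no stimulation after sorting. The WT group held 3 libraries (pools 5, 6 and 13) and the group labelled *Rag1*-/- held 2 (pools 2 and 7), each library made from cells of several pooled mice. By the methods the mice were female and 8 to 13 weeks old, with 10 mice in a WT pool and 9 in a *Rag1*-/- pool. The labels gave 16 *Rag1*-/- mice in all where the methods gave 18. *Rag1*-/- mice lack mature T and B cells in every tissue from birth, so that effects of the missing gene and of the missing lymphocytes cannot be told apart.

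TGF-beta is made as a latent complex in which the mature cytokine stays wrapped in its own propeptide after cleavage by furin. Integrins of the alpha-v family, among them the one that contains the *Itgb8* product, bind this propeptide and activate the cytokine. The active dimer binds TGFBR2, which recruits and phosphorylates TGFBR1, and TGFBR1 phosphorylates SMAD2 and SMAD3. These enter the nucleus with SMAD4, where they induce *Smad7* among other genes, and SMAD7 blocks the receptor. In skin, TGF-beta is known for keeping Langerhans cells and resident lymphocytes in the epidermis, in part through *Itgae*, which encodes CD103.

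The libraries were examined before the genes. Total counts ranged from 32939428 to 39477243 in WT and were 8050562 (pool 2) and 38922750 (pool 7) in the libraries labelled *Rag1*-/-. The targeted gene *Rag1* was counted 4, 0 and 5 times in WT pools 5, 6 and 13 and 5 and 48 times in pools 2 and 7, so that pools 2 and 7 had no fewer of its transcripts than WT and the labels could not be checked by it. *Rag1* lies within *B230118H07Rik*, annotated on the same strand over 11220 bases, so that its counts are uncertain. A cell type field of the deposited labels also names these 2 libraries as type 3 innate lymphoid cells, whereas the protocol names dILC2s throughout. All 16 genes of an ILC2 marker list were detected, summing to 1186 to 2325 CPM (counts scaled to a library total of 1000000) in WT and 5382 and 3439 CPM in pools 2 and 7. Much of these sums was *Rora* (639 to 1168 CPM in WT, 2307 and 1187 CPM in pools 2 and 7). Some genes of the list were scarce, such as *Klrg1* (0.129 to 1.19 CPM in WT, 11.9 and 3.93 CPM in pools 2 and 7). The libraries also held RNA of other skin cells. A list of 30 keratinocyte genes summed to 36480 to 52583 CPM in WT and to 9039 (pool 2) and 20921 CPM (pool 7) in the other group, and a list of 30 genes of all leukocytes summed to 1270 to 3151 CPM and to 10357 and 9335 CPM. None of the genes of either list was at 0 in all libraries. In bulk RNA of this kind, fewer cells of a type and less RNA per cell cannot be told apart.

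Of the 10 TGF-beta genes, 3 were higher in the libraries labelled *Rag1*-/- and none was lower (edgeR's quasi-likelihood test, with adjusted p under 0.05 and a log2 fold change beyond 1 in size, libraries scaled by TMM). The 3 genes were *Tgfb1*, *Smad3* and *Smad7*. When libraries were scaled on the leukocyte list, 0 of the 10 were higher and 6 lower. Of all 19011 genes tested, 16 were then called higher and 13092 lower, so that a lower call was common. At an unadjusted p-value under 0.05 from edgeR, 1 gene was lower (*Itgb8*), which DESeq2 called. With TMM scaling, 3.57% of all 19011 genes tested were called higher and 2.16% lower by the edgeR rule with both thresholds, 5.73% together. The median log2 fold change was 0.34 over the 10 genes and 0.02 over all genes tested. Levels of the groups did not overlap for 6 genes: *Tgfb1*, *Tgfbr2*, *Smad3* and *Smad7* lay above WT in both libraries labelled *Rag1*-/-, and *Tgfb2* and *Itgb8* lay below. Over all genes tested, groups did not overlap in 21.9% on the higher side and in 24.0% on the lower side, so that non-overlap alone was common in these libraries. The 3 calls depended on which library was left out. With WT pool 5, 6 or 13 or the library labelled *Rag1*-/- pool 2 left out, none of the 10 genes was called higher by the edgeR test, as no gene of the whole table was (3521 to 5200 genes then had an unadjusted p-value under 0.05). The adjusted p of *Tgfb1*, *Smad3* and *Smad7* then reached up to 0.109, 0.127 and 0.119 by this edgeR test, and with pool 7 left out the same 3 genes were called.

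**Figure D1:**
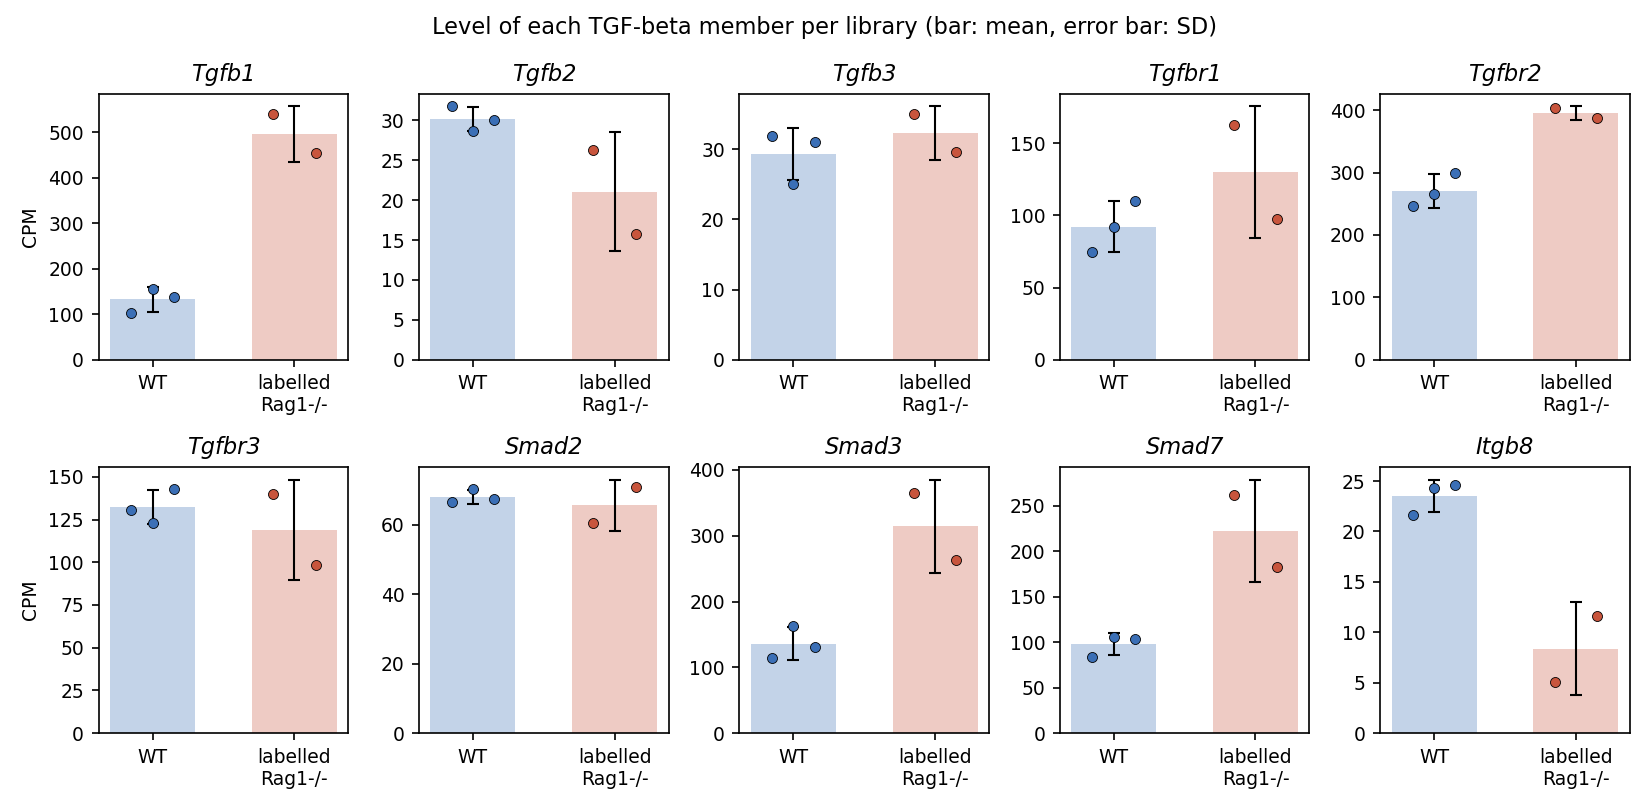
Level of each of the 10 TGF-beta genes in CPM (vertical axes start at 0) in the 3 WT libraries (blue points) and the 2 libraries labelled *Rag1*-/- (red points), with bars at the mean and error bars of 1 SD. *Tgfb1* reached 453 and 539 CPM against 103 to 156 CPM in WT, whereas *Smad2* lay between 60.5 and 70.9 CPM in all 5 libraries.

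Of the 10 genes, *Tgfb1* had the largest log2 fold change with all 5 libraries and TMM scaling, an order that did not hold without pool 7 or with scaling on the leukocyte list, where that of *Itgb8* was larger in size (-2.27 and -3.63). *Tgfb1* (chromosome 7 of GRCm38, 25687002 to 25705077, plus strand) encodes the TGF-beta ligand that immune cells mainly make. It had 103, 156 and 138 CPM in WT pools 5, 6 and 13 and 539 and 453 CPM in pools 2 and 7, labelled *Rag1*-/-. Its lowest level in the latter group was well above its highest in WT. The means were 132 ± 26.8 CPM (SD, n = 3) and 496 ± 60.8 CPM (SD, n = 2), a 3.75-fold difference. The log2 fold change was 1.94 (SE, the standard error, of 0.24, with an adjusted p of 0.0306 by the quasi-likelihood test of edgeR), and it became -0.21 (adjusted p = 0.791) when libraries were scaled on the leukocyte list. Relative to that list, *Tgfb1* had 8.12, 4.95 and 4.42 counts per 100 counts of leukocyte genes in WT and 5.21 and 4.85 in the libraries labelled *Rag1*-/-, which overlapped (exact permutation test, two-sided p = 1).

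Neither of the other ligand genes rose with *Tgfb1*. *Tgfb2* (chromosome 1, 186622792 to 186705989, minus strand), a ligand of epithelial and mesenchymal cells, had 31.8, 28.7 and 30.1 CPM in WT and 26.3 and 15.8 CPM in pools 2 and 7. Both values were below WT and differed from each other by more than the WT pools did. The log2 fold change was -0.50 (95% interval -1.09 to 0.08, adjusted p = 0.247, edgeR), -0.86 without pool 2, -0.26 without pool 7 and 1.36 with scaling on the keratinocyte list. *Tgfb3* (chromosome 12, 86056744 to 86079041, minus strand) had 25.0 to 31.9 CPM in WT and 35.0 and 29.6 CPM in the other group. These values overlapped, and the log2 fold change of 0.17 had a 95% interval from -0.30 to 0.64 (adjusted p = 0.651, edgeR) and was -2.13 with scaling on the leukocyte list. *Tgfb3* overlaps *Ttll5* on the opposite strand over 5150 bases, and since the strand setting of the counting was not given in the sources used here, reads of the overlap may have been assigned to either or to neither.

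The balance among the ligands was examined within each library, where no scaling enters. The leukocyte and keratinocyte lists moved in opposite directions between the groups, and the part of cell composition in this balance was not tested. For each count of *Tgfb2* there were 3.24, 5.43 and 4.58 of *Tgfb1* in WT pools 5, 6 and 13, against 20.5 and 28.7 in the libraries labelled *Rag1*-/-. For each count of *Tgfb3* there were 3.23, 6.23 and 4.44 of *Tgfb1* in WT and 15.4 and 15.3 in the other group. Neither ratio overlapped between the groups, and each had an exact permutation p of 0.2 (two-sided), the smallest value that 10 splits of 3 and 2 libraries can give. Per kilobase of exon, *Tgfb1* made up 64.9% ± 6.84 (SD, n = 3) of the summed level of the 3 ligand genes in WT but 88.2% ± 0.646 (SD, n = 2) where the label was *Rag1*-/-. With the transcript length of the deposited table in place of the exon length, these shares were 80.2% ± 4.75 and 94.4% ± 0.362. The share of *Tgfb2* was 13.1% ± 2.12 in WT and 3.21% ± 0.735 in the other group by exon length.

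**Figure D2:**
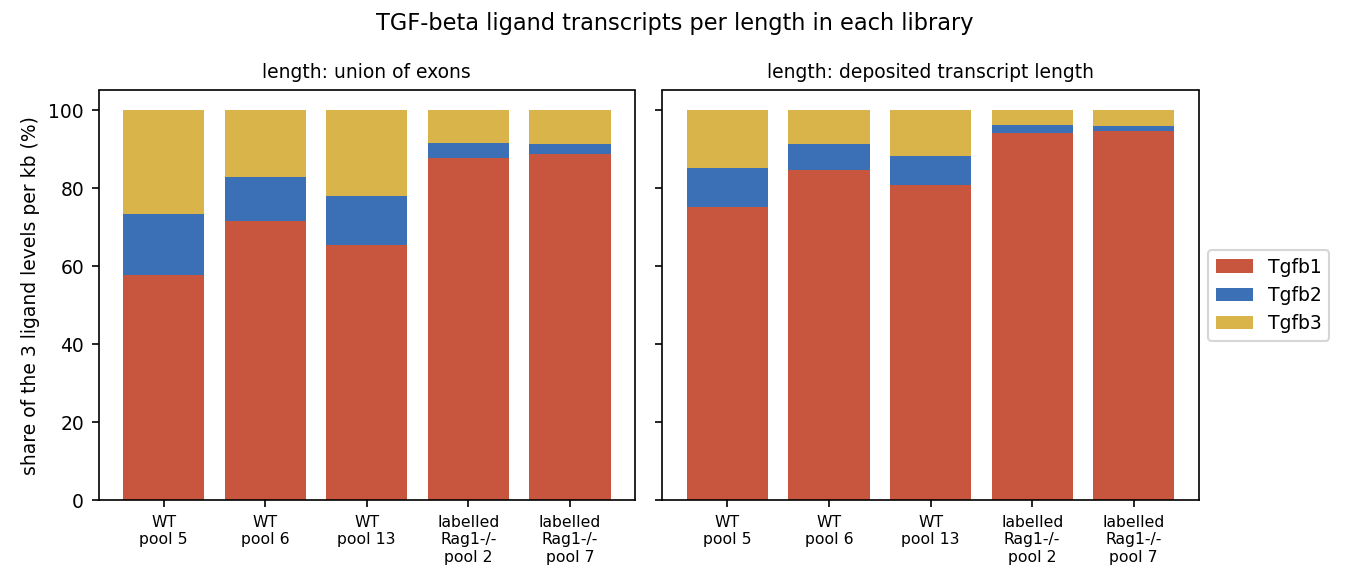
Share of *Tgfb1*, *Tgfb2* and *Tgfb3* in the summed level per kilobase of the 3 ligand genes (percent, vertical axis from 0) in each of the 5 libraries, by exon length of the annotation (left) and by the transcript length in the deposited table (right). *Tgfb1* held 57.8% to 71.5% in WT and 87.8% and 88.7% in the libraries labelled *Rag1*-/- by exon length, and the order of the libraries is alike in both panels. The part of cell composition in these shares was not tested.

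The stretches upstream of *Tgfb1* and *Smad3* are shown because both genes were called higher. Each runs over the 250 bases before the RefSeq start site (build GRCm38.p6), at chr7:25686752-25687001 on the plus strand for *Tgfb1* and at chr9:63757995-63758244 on the minus strand for *Smad3*. They are printed 5′ to 3′ with capitals at GC boxes, the letters GGGCGG on either strand.
Tgfb1: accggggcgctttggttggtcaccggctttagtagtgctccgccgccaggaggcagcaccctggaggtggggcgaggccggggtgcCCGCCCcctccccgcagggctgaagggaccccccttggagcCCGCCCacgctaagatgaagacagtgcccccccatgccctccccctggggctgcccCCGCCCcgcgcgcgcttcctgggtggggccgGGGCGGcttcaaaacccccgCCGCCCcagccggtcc
Smad3: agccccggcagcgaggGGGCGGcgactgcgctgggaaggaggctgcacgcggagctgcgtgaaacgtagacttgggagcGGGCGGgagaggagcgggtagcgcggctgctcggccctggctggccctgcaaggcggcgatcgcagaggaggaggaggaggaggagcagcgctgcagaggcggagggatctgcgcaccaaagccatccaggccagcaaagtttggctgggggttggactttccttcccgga
The *Tgfb1* stretch held 5 such boxes, 75.2% G and C bases and 21 CpG, and the *Smad3* stretch held 2 boxes, 69.2% G and C and 22 CpG. Among all 32851 RefSeq windows of this length, 32.7% held a GC box, the median share of G and C was 52.4% and the median number of CpG was 6. Of the 10 genes, 6 had an entry in the sequence table. No GC box was found upstream of *Tgfb2*, *Tgfbr2* or *Itgb8*, while 1 of the 2 windows of *Tgfbr1* held 2. The AP-1 letters TGANTCA (6.75% of all windows, both strands) and the SMAD palindrome GTCTAGAC (0.167%) were in none of the windows of these 6 genes, and the shorter SMAD letters CAGACA (17.1%) were in 1 window each of *Tgfb2*, *Tgfbr1* and *Itgb8*. These matches describe letters in a window and are not binding sites.

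Genes that act on latent TGF-beta moved both ways, and *Itgb8* lay lower in the libraries labelled *Rag1*-/- without passing the test. *Itgb8* (chromosome 12, 119158022 to 119238802, minus strand) had 21.7, 24.3 and 24.6 CPM in WT pools 5, 6 and 13 and 5.09 and 11.6 CPM in the libraries labelled *Rag1*-/- (pools 2 and 7). The WT pools lay close together and both other libraries lay below them, pool 2 farther than pool 7. In counts, pool 2 held 41 and pool 7 held 453. On the log2 scale the difference was -1.41 (SE 0.37, 95% interval -2.28 to -0.54, adjusted p = 0.0672, edgeR's quasi-likelihood test), which missed the threshold, and it was 0.01 with scaling on the keratinocyte list. *Itgb8* was called lower with pool 7 left out (-2.27, adjusted p = 0.0127) and with DESeq2 (-1.44, adjusted p = 0.00363), while with pool 2 left out its value was -0.94 (adjusted p = 0.0781, edgeR). Per 100 counts of the keratinocyte list, *Itgb8* stood at 0.0412, 0.058 and 0.0673 in WT and at 0.0563 and 0.0556 in pools 2 and 7, which overlapped (exact permutation test, two-sided p = 1).

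The alpha-v chain that pairs with the *Itgb8* product is encoded by *Itgav*, which had 258, 439 and 350.1 CPM in WT and 607 and 579 CPM in the libraries labelled *Rag1*-/-. Its groups did not overlap, and its log2 fold change of 0.80 missed the threshold (adjusted p = 0.118, edgeR) and was -1.33 with scaling on the leukocyte list. Within libraries, there were 0.0555 to 0.0841 counts of *Itgb8* for each count of *Itgav* in WT and 0.00839 and 0.0201 in pools 2 and 7. This ratio did not overlap between the groups. Its exact permutation p of 0.2 (two-sided) is the smallest that 10 splits can give, so the test cannot tell the groups apart. The leukocyte and keratinocyte lists moved in opposite directions between the groups, and the part of cell composition in this ratio was not tested. *Itgb6*, whose product pairs with the same chain in epithelia, had 32.5 to 43.3 CPM in WT and 25.7 and 14.6 CPM in the other group (log2 fold change -0.91, adjusted p = 0.101, edgeR), and 0.98 with scaling on the keratinocyte list.

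In a list of 18 genes that store, cleave or activate TGF-beta, 17 were tested. Of these, 2 were called higher (11.8%) and 1 lower (5.88%), beside 3.57% and 2.16% over all genes tested. *Furin*, the protease that cuts the propeptide, rose from 478, 938 and 624 CPM in WT to 2510 and 2050 CPM in pools 2 and 7. Both libraries labelled *Rag1*-/- exceeded every WT pool, with a log2 fold change of 1.77 (SE 0.33, adjusted p = 0.0335, edgeR) that was -0.34 with scaling on the leukocyte list. *Nrros*, which tethers latent TGF-beta on myeloid cells, rose from 13.5, 18.6 and 22.5 CPM to 42.1 and 35.0 CPM (log2 fold change 1.11, adjusted p = 0.0492, edgeR), and was at -1.02 with the leukocyte scaling. Its call was lost without any 1 of the 5 libraries, at an adjusted p of 0.0576 without pool 7 and up to 0.143 without WT pool 6. *Lrrc32*, the tether of regulatory T cells and endothelium, overlapped between the groups (62.1 to 141 CPM and 43.0 and 62.9 CPM, adjusted p = 0.3004, edgeR), with a log2 fold change of -0.73 that was 0.95 with the keratinocyte scaling.

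*Thbs1*, the thrombospondin that can free TGF-beta from its propeptide, fell from 3298, 3744 and 3624 CPM in WT to 1663 and 1400.1 CPM. Every WT pool was far above the other group, whose 2 values were close together. Its log2 fold change was -1.19 (SE 0.25, adjusted p = 0.0406, edgeR) and turned to 0.58 with scaling on the keratinocyte list. Among 17 ligands and soluble inhibitors of the wider superfamily, 16 were tested and *Fst* was the only one called (6.25% lower, beside 2.16% over all genes tested). *Fst*, which encodes the activin antagonist follistatin, fell from 108, 106 and 165 CPM to 29.9 and 49.0 CPM (log2 fold change -1.63, SE 0.32, adjusted p = 0.0371, edgeR). Its value was -0.10 with scaling on the keratinocyte list.

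None of the 3 receptor genes was called. *Tgfbr2* (chromosome 9, 116087698 to 116175363, minus strand), the receptor that binds the ligand, had 246, 266 and 299 CPM in WT and 403 and 387 CPM in the libraries labelled *Rag1*-/-. The groups did not overlap, and the 2 values of the latter were close together. The fold between the means was 1.46, and the log2 fold change of 0.58 (SE 0.19, 95% interval 0.12 to 1.04, adjusted p = 0.118, edgeR) was -1.63 with scaling on the leukocyte list. *Tgfbr1* (chromosome 4, 47353222 to 47414931, plus strand), the receptor that phosphorylates the SMADs, had 74.7, 91.8 and 109.8 CPM in WT and 162 and 97.8 CPM in pools 2 and 7. Pool 7 lay within the WT range, and the log2 fold change of 0.52 had a 95% interval from -0.11 to 1.15 (adjusted p = 0.266, edgeR). It was 0.16 without pool 2, 0.76 without pool 7 and -1.65 with scaling on the leukocyte list.

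*Tgfbr3* (chromosome 5, 107106570 to 107289629, minus strand) encodes betaglycan, a co-receptor that presents TGF-beta 2 to the signalling receptors. It had 130.3, 123 and 143 CPM in WT and 139.7 and 98.3 CPM in the other group, which overlapped. The log2 fold change was -0.12 (95% interval -0.61 to 0.36, adjusted p = 0.760, edgeR), 0.02 without pool 7 and 1.69 with scaling on the keratinocyte list. Within libraries, the ratio of *Tgfbr2* to *Tgfbr3* counts was 1.89 to 2.16 in WT and 2.89 and 3.94 in pools 2 and 7, without overlap, while that of *Tgfbr2* to *Tgfbr1* was 2.72 to 3.30 and 2.48 and 3.96, which overlapped. Of 11 other receptors of the superfamily, none passed both thresholds, and their median log2 fold change was -0.60. The adjusted p-value passed without the fold threshold for 3 of them, as it did for 102 of all 19011 genes tested. All 3 were lower with TMM scaling. *Acvr1b*, an activin receptor, had 96.0 to 106 CPM in WT and 57.6 and 51.8 CPM in the libraries labelled *Rag1*-/- (log2 fold change -0.88, adjusted p = 0.0401, edgeR), and 0.88 with scaling on the keratinocyte list. The other two, named after their values were seen, were the BMP receptors *Bmpr1a* (144.7 to 153 CPM and 70.1 and 79.3 CPM) and *Bmpr2* (292 to 331 CPM and 173 and 162 CPM). Their log2 fold changes were -0.96 and -0.85 with TMM scaling, and scaling on the keratinocyte list moved all genes by 1.69 at the median. *Eng*, the endothelial co-receptor endoglin, had 67.6 to 111 CPM and 44.97 and 60.4 CPM (log2 fold change -0.61, adjusted p = 0.237, edgeR), and its value was 1.07 with the keratinocyte scaling.

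Of the transducer genes, *Smad3* was called higher and *Smad2* was not called. *Smad3* (chromosome 9, 63646767 to 63757994, minus strand) had 114, 163 and 130 CPM in WT pools 5, 6 and 13 and 364 and 264 CPM in pools 2 and 7. Both libraries labelled *Rag1*-/- were above all WT pools. The means were 136 ± 25.3 CPM (SD, n = 3) and 314 ± 71.1 CPM (SD, n = 2), a 2.31-fold difference. This gave a log2 fold change of 1.23 (SE 0.24, adjusted p = 0.0368, quasi-likelihood test of edgeR) and -0.94 (adjusted p = 0.239) with scaling on the leukocyte list. *Smad2* (chromosome 18, 76241580 to 76305731, plus strand), the parallel transducer, had 66.5, 70.3 and 67.4 CPM in WT and 60.5 and 70.9 CPM in the other group. These values overlapped. Its log2 fold change was -0.01 with a 95% interval from -0.45 to 0.42 (adjusted p = 0.974, edgeR), and 1.66 with scaling on the keratinocyte list.

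Within libraries, there were 1.71, 2.33 and 1.93 of *Smad3* for each count of *Smad2* in WT and 6.02 and 3.72 in pools 2 and 7, without overlap and at the smallest exact permutation p of 0.2 (two-sided). *Smad4*, the partner of both transducers, had 99.96 to 119 CPM in WT and 113 and 108 CPM in the libraries labelled *Rag1*-/-. Its log2 fold change was 0.04 with a 95% interval from -0.39 to 0.46 (adjusted p = 0.929, edgeR), and -2.17 with scaling on the leukocyte list.

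*Smad7* (chromosome 18, 75367529 to 75395935, plus strand), the inhibitor that TGF-beta signalling itself induces, rose along with *Smad3*. It had 83.95, 106 and 104 CPM in WT and 262 and 182 CPM in pools 2 and 7. Both of the latter exceeded the WT range. The means were 98.0 ± 12.2 CPM (SD, n = 3) and 222 ± 56.5 CPM (SD, n = 2), and the log2 fold change was 1.21 (SE 0.22, adjusted p = 0.0332, quasi-likelihood test of edgeR), or -0.98 (adjusted p = 0.22) with scaling on the leukocyte list. The ratio of *Smad7* to *Smad3* counts was 0.738, 0.648 and 0.798 in WT and 0.72 and 0.691 in the other group, which overlapped (exact permutation test, two-sided p = 0.8). In 24 other SMAD genes and SMAD regulators, 1 was called higher and 1 lower (4.17% each, near the 3.57% and 2.16% over all genes tested). *Ldlrad4*, an inhibitor that keeps SMADs from the receptor, rose from 18.4, 20.3 and 22.3 CPM in WT to 49.1 and 33.7 CPM (log2 fold change 1.05, adjusted p = 0.0401, edgeR), and was at -1.16 with the leukocyte scaling. Its call held in 5 of 8 alternative settings that kept all libraries and used no marker list, with log2 fold changes from 0.97 to 1.07. *Zfyve9*, which encodes the anchor that brings SMADs to the receptor, fell from 91.3, 75.9 and 77.2 CPM to 27.0 and 33.1 CPM (log2 fold change -1.40, SE 0.21, adjusted p = 0.0306, edgeR), and was at 0.27 with the keratinocyte scaling. The co-repressor genes *Ski* (246 to 277 CPM and 434 and 399 CPM, adjusted p = 0.0688, edgeR) and *Skil* (289 to 390 CPM and 476 and 340 CPM, adjusted p = 0.576) were not called, with log2 fold changes of 0.72 and 0.25 that were -1.51 and -1.93 with the leukocyte scaling.

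**Figure D3:**
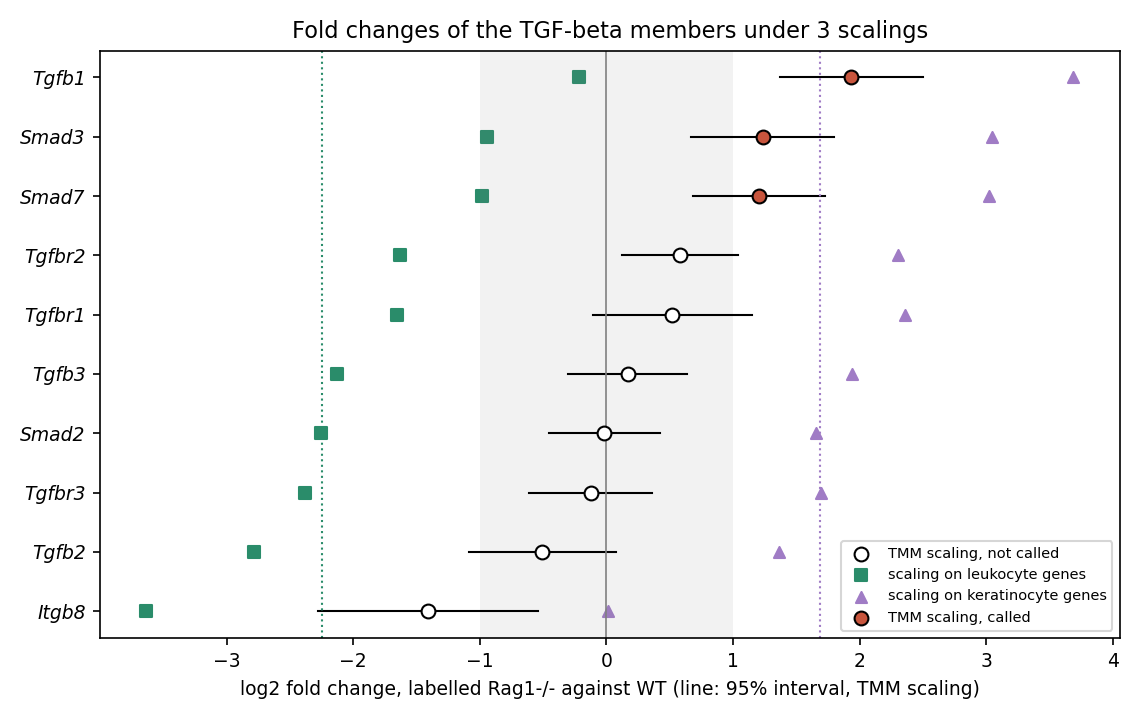
Log2 fold change of each of the 10 genes in the libraries labelled *Rag1*-/- against WT with TMM scaling (circles, red where called, with 95% intervals), with scaling on the summed leukocyte list (green squares) and with scaling on the summed keratinocyte list (purple triangles). Dotted lines mark the shift of all genes (-2.24 and 1.69) and grey the band between -1 and 1. *Tgfb1*, *Smad3* and *Smad7* are above 0 with TMM and the keratinocyte list and below 0 with the leukocyte list, and *Itgb8* is below 0 with TMM and the leukocyte list and at 0.01 with the keratinocyte list.

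The scaling decided the sign of most of these values, so it was examined once for all of them. Scaling on the leukocyte list moved all genes by -2.24 in log2 at the median, and scaling on the keratinocyte list moved them by 1.69. Of the genes called with TMM, 62.3% were higher, against 0.122% with the leukocyte list (16 higher and 13092 lower) and 99.4% with the keratinocyte list (11382 higher and 69 lower). Relative to the shift, *Tgfb1* was at 2.03 and 2.00, *Smad3* at 1.30 and 1.35, *Smad7* at 1.26 and 1.33 and *Itgb8* at -1.39 and -1.68 under the leukocyte and the keratinocyte scaling. Since a scaling moves all genes nearly alike, these differences from the shift stay near the TMM values by construction. None of the 10 was called higher with the leukocyte list and 9 were with the keratinocyte list.

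Target genes of the pathway were examined next. In a list of 24 textbook TGF-beta response genes, 1 was called higher (4.17%, beside 3.57% over all genes tested) and none lower, with a median log2 fold change of 0.08. *Itgae*, the CD103 gene that TGF-beta induces in resident lymphocytes, had 82.4, 221 and 208 CPM in WT and 957 and 780 CPM in pools 2 and 7. Its lowest value in the libraries labelled *Rag1*-/- was above its highest in WT, and the fold between the means was 5.09. In log2 terms this was 2.38 (SE 0.42, adjusted p = 0.0309, edgeR), and 0.39 (adjusted p = 0.624) with scaling on the leukocyte list. *Runx1*, named after its values were seen, passed the adjusted p-value (0.0393, edgeR) at a log2 fold change of 0.97, under the fold threshold. In this list groups did not overlap in 6 genes on the higher side (21.9% over all genes tested) and in 5 on the lower (24.0%). The lower ones included *Snai2* (21.3 to 24.0 CPM in WT, 12.3 and 6.96 CPM in pools 2 and 7). *Tgfbi* was also lower (545 to 669 CPM, 181 and 353 CPM). Both were named after their values were seen. With TMM scaling their log2 fold changes were -1.22 and -1.13 (adjusted p = 0.0516 and 0.0882, edgeR), and neither was called. Collagen genes *Col1a1* and *Col1a2* of this list are also markers of fibroblasts.

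Across all 94 other genes of the pathway, 92 were tested, 4 were called higher (*Furin*, *Nrros*, *Ldlrad4* and *Itgae*) and 3 lower (*Thbs1*, *Fst* and *Zfyve9*). These shares of 4.35% and 3.26% stood beside 3.57% and 2.16% over all genes tested. The median log2 fold change of the 92 genes was -0.14. Groups did not overlap in 19 of the 92 on the higher side and in 31 on the lower, where 21.9% and 24.0% did not over all genes tested. Without WT pool 5, 6 or 13, none of the 94 was called in either direction, as no gene of the whole table was. Fits without pool 2 or pool 7 leave a single library labelled *Rag1*-/-, so their calls are not counted for these genes.

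**Figure D4:**
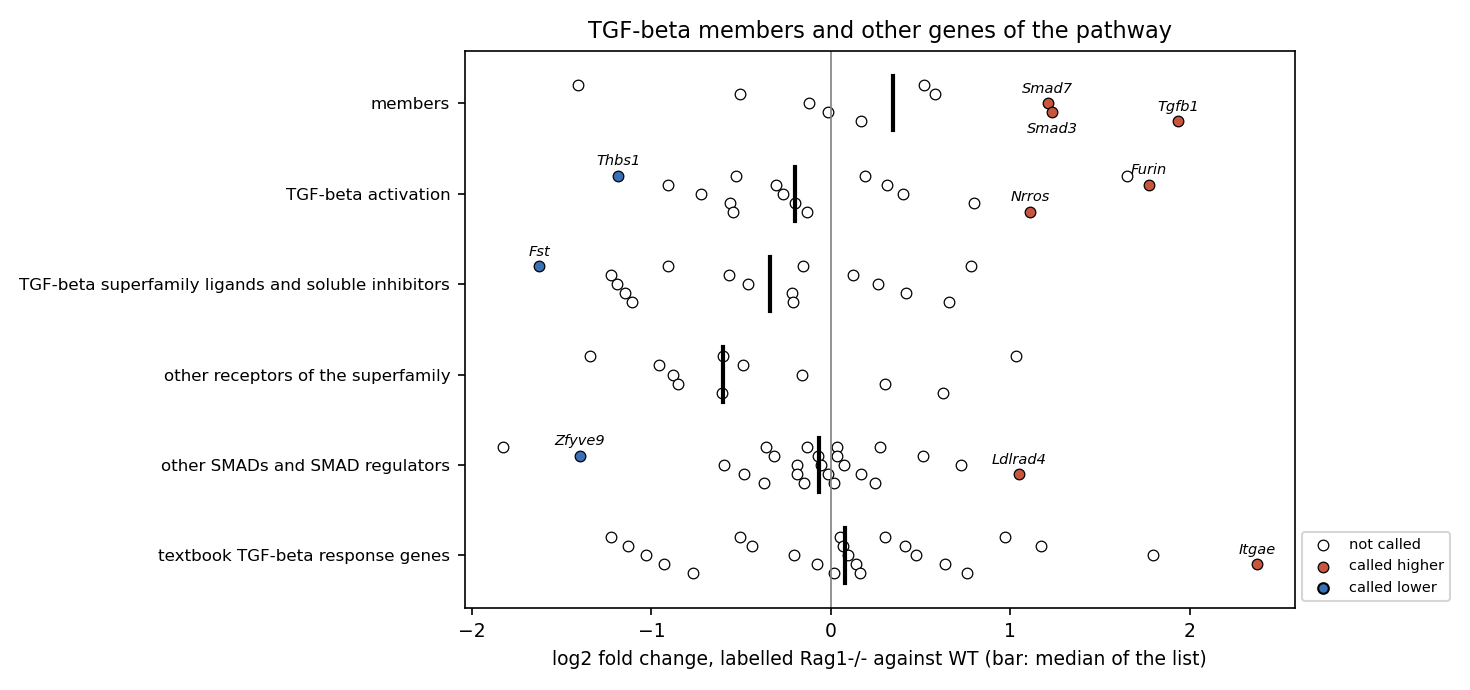
Log2 fold change of the 10 TGF-beta genes (top row) and of the tested genes of 5 lists of other pathway genes (TMM scaling), in the libraries labelled *Rag1*-/- against WT, where each point is a gene, red if called higher, blue if called lower, and black bars are medians. The median of the 10 genes was 0.34, and those of the lists lay between -0.60 for other receptors and 0.08 for response genes. Scaling on the leukocyte list moved the median of all genes by -2.24 and scaling on the keratinocyte list by 1.69, so that signs in this plot hold for TMM scaling.

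Levels of the 10 genes were set side by side as CPM per kilobase of exon. In WT the order by mean was *Tgfbr2* (33.0), *Tgfb1* (26.2), *Smad3* (24.5), *Smad7* (21.7) and *Tgfbr3* (20.2), neighbours whose ranges overlapped, followed by *Tgfbr1* (14.1), *Tgfb3* (8.67), *Smad2* (7.75), *Tgfb2* (5.21) and *Itgb8* (2.13). Among these last 5, the ranges of *Tgfb3* and *Smad2* overlapped and those of other neighbours did not. In the libraries labelled *Rag1*-/- *Tgfb1* came first at 98.4 and did not overlap with *Smad3* (56.7), the next gene. *Smad7* (49.2) and *Tgfbr2* (48.3) followed, each overlapping the gene before it in range, then *Tgfbr1* (19.9) and *Tgfbr3* (18.2), which overlapped too. *Tgfb3* (9.55), *Smad2* (7.48), *Tgfb2* (3.64) and *Itgb8* (0.756) came last and were apart from each other. Lengths mattered for this order. With the shorter transcript length of the deposited table, an alternative added after the data were seen, *Tgfb1* (60.8) and *Tgfbr2* (56.5) overlapped at the top in WT and *Smad2* moved from rank 8 to rank 4 (23.8), while *Tgfb1* (228) stayed first in the other group.

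The changes of these genes were set beside the marker lists, since RNA of several cell types was in the libraries. In the leukocyte list 23 of 30 genes were called higher, and in all 30 the groups did not overlap on that side. In the keratinocyte list 10 of 30 were called lower, and in 29 the groups did not overlap on that side. *Smad3* had 8.95, 5.19 and 4.18 counts per 100 counts of the leukocyte list in WT and 3.52 and 2.83 in pools 2 and 7. *Tgfbr2* had 19.4, 8.43 and 9.59 in WT and 3.89 and 4.15 in the other group. Both were thus lower relative to the leukocyte list in the libraries labelled *Rag1*-/-, as was *Smad7* (3.34 to 6.61 and 2.53 and 1.95), each without overlap. Each had the smallest exact permutation p possible, 0.2 (two-sided, 16 ratios computed in all), whereas *Tgfb1* overlapped on this measure. With scaling on this list, 13092 of all 19011 genes tested were called lower, so that a lower value was common. The ratios do not tell which cells the transcripts came from. WT pool 5, with the lowest leukocyte sum, had the highest of these ratios. The part of cell composition in the changes of the 10 genes was not tested.

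**Figure D5:**
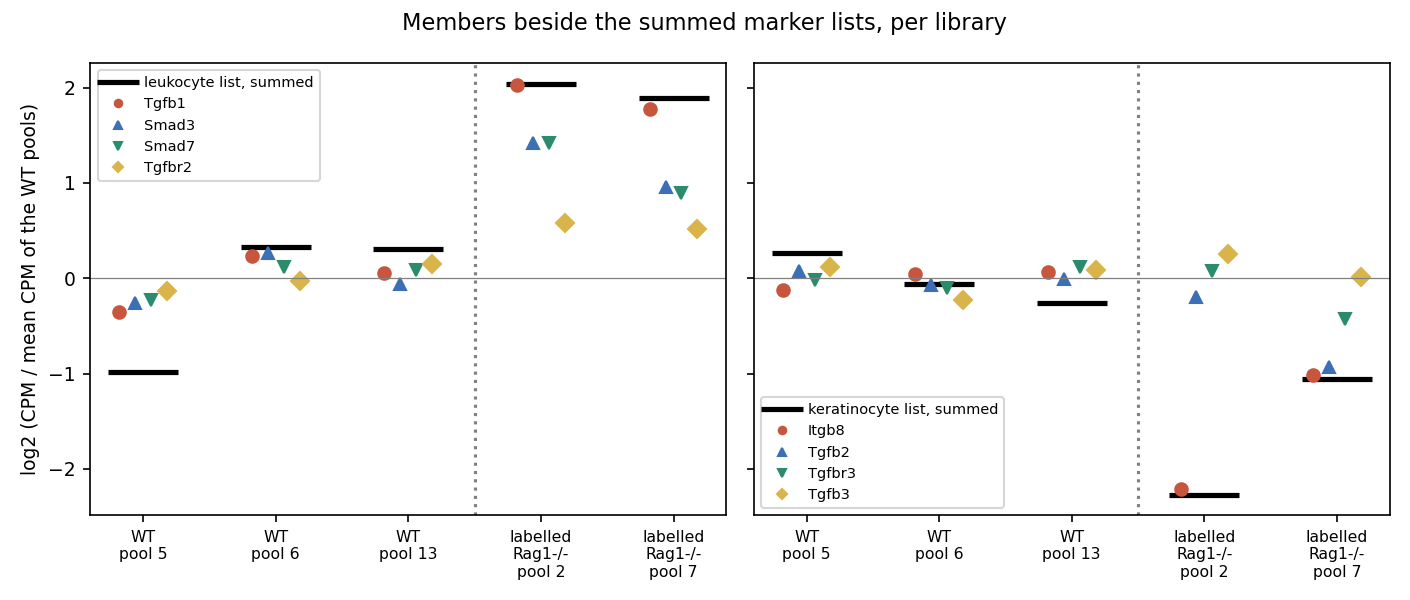
Level of *Tgfb1*, *Smad3*, *Smad7* and *Tgfbr2* beside the summed leukocyte list (left) and of *Itgb8*, *Tgfb2*, *Tgfbr3* and *Tgfb3* beside the summed keratinocyte list (right) in each of the 5 libraries, as log2 of CPM over the mean CPM of the WT pools. These genes were picked by hand, and *Tgfbr1* and *Smad2* are not shown. *Tgfb1* lies next to the leukocyte bar in both libraries labelled *Rag1*-/-, with *Smad3*, *Smad7* and *Tgfbr2* below it, and *Itgb8* lies next to the keratinocyte bar.

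Markers of other cells were measured as well, among them T cells, which the exclusion of CD2 and CD3 should remove. Mature T and B cells are also absent from *Rag1*-/- mice. Fibroblasts, endothelial cells and melanocytes, which the CD45+ gate should remove, were measured too. The T cell list (13 genes) summed to 80.4 to 169 CPM in WT and 514 and 463 CPM in the libraries labelled *Rag1*-/-, with 5 genes called higher (*Cd3g*, *Cd247*, *Trac*, *Trbc2* and *Lat*). Its genes did not move alike: groups did not overlap in 7 on the higher side and in 1 on the lower. The lower one was *Cd5* (2.00 to 3.58 CPM in WT and 1.37 and 0.668 CPM in pools 2 and 7, not called). *Cd3d*, *Cd3e*, *Trdc*, *Cd6* and *Cd8a* overlapped. The list of NK cells and ILC1 summed to 27.2 to 91.7 CPM and 225 and 259 CPM with 3 of 9 called higher (*Prf1*, *Gzma* and *Ifng*), and that of ILC3 to 152 to 167 CPM and 389 and 258 CPM with 4 of 7 called higher (*Il23r*, *Il17f*, *Il22* and *Ccr6*). In the ILC2 list 5 of 16 were called higher (*Il5*, *Il13*, *Areg*, *Arg1* and *Tnfrsf18*). Markers of fibroblasts, also a source of TGF-beta, summed to 8463 to 14855 CPM and 10273 and 9843 CPM, with 1 of 13 called higher (*Thy1*, which encodes the CD90 of the gate). No gene was called in the lists of endothelial cells (515 to 902 CPM and 268 and 551 CPM), myeloid and Langerhans cells (1038 to 2523 CPM and 1441 and 2323 CPM), melanocytes (58.1 to 82.8 CPM and 50.9 and 46.1 CPM) or B cells (9.14 to 25.4 CPM and 26.5 and 11.6 CPM). None was called in the mast cell list either, where 6 of 10 genes were lower without overlap and the median log2 fold change was -0.60, although its sum was 208 to 329 CPM and 625 and 466 CPM through *Kit* (52.9 to 179 CPM and 534 and 336 CPM), which other cells also express. The part of these cells in the levels of the TGF-beta genes was not tested.

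Genes with the most similar profile over the 5 libraries were listed for the 3 called genes. Likeness was the root mean square distance between log2 CPM centred on each gene's mean, taken against 19010 genes. For *Tgfb1* the nearest were *Dnajb13* (0.0723), *Stk32c* (0.0986) and *Cd7* (0.100), the last of which encodes a surface molecule of lymphocytes. For *Smad3* they were *Mgat5* (0.0515), *Rassf5* (0.0518) and *Coro7* (0.0540), and for *Smad7* they were *Gm28373* (0.0504), *Nt5e* (0.0512) and *Fbxw17* (0.0611). *Nt5e*, which encodes the ectonucleotidase CD73, had 99.5 to 132 CPM in WT and 300.1 and 223 CPM in the libraries labelled *Rag1*-/-. Such nearness over 5 libraries is a description of their profiles.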

How the data were processed

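RNA of sorted dILC2s was sequenced by the authors (50-base reads), aligned to GRCm38 with STAR 2.5 and counted per gene with featureCounts 1.5.0-p1, and the raw counts were deposited. The methods name release 84 of the Ensembl annotation and the design text release 103. The authors also deposited a normalized signal per gene, used in 1 alternative only, and a transcript length per gene. Columns of the authors' own comparison were not used. The WT total was 38796193 counts at the median. The smallest level the depth can show (3 counts, counting error only) was 0.076 to 0.0911 CPM in WT and 0.373 and 0.0771 CPM in the libraries labelled *Rag1*-/-.

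From the deposited counts, groups taken from the labels entered the quasi-likelihood test of edgeR 4.0.16 under R 4.3.3, after TMM scaling and filterByExpr. Its p-values were adjusted by Benjamini-Hochberg over 19011 genes, no covariate was used, and the test was checked on simulated counts. The pools came from separate mice. CPM divides by the total counts. Per-length levels used exons of GENCODE M21 merged per gene. A single ratio was tested with the exact permutation test. Genes named are the 10 members, called genes of 5 pathway lists (94 genes), 12 genes fixed by name and the 3 nearest profiles of each called member, and a few others are stated to be named after their values were seen. Members and lists were chosen with earlier results of these data known. The alternative settings used DESeq2 1.42.0 (plain, and with shrunken fold changes), limma 3.58.1 on log2(signal + 1), RLE scaling, library size alone, scaling on either marker list, no filter, a minimum of 10 counts per library, thinning to 8050562 counts, the adjusted p-value alone, and each library left out. Promoter windows were taken from RefSeq. Flow cytometry was not analysed here.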

Additional observations from a re-analysis of the deposited data

How the results depend on the processing

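No paired analysis was possible because the groups share no replicate numbers. *Tgfb1*, *Smad3* and *Smad7* kept their direction and call under DESeq2 with and without a prior, RLE scaling, library size alone, no filter, a minimum of 10 counts per library, limma on the deposited signal and thinning, where their log2 fold changes ranged from 1.83 to 1.95, 1.16 to 1.21 and 1.13 to 1.25. The calls of *Furin* and *Itgae* also held in all 8 of these settings, whereas those of *Nrros* and *Ldlrad4* held in 5. Over the left-out libraries the ranges were 1.78 to 2.08, 1.03 to 1.40 and 0.97 to 1.36, the members called higher numbered 0 to 3 and those called lower 0 to 1, and the other pathway genes called higher numbered 0 to 4 and lower 0 to 12. With the leukocyte scaling the members called higher and lower were 0 and 6 and the other pathway genes 0 and 75, beside 16 and 13092 of all 19011 genes tested. With the keratinocyte scaling 9 members and 58 other genes were called higher and 0 other genes lower, beside 11382 and 69 of all genes tested. DESeq2 with or without a prior, no filter, at least 10 counts and thinning called 1 member lower (*Itgb8*). Other pathway genes called lower numbered 6 with DESeq2, with its prior, with at least 10 counts and by the adjusted p-value alone, 7 without a filter and 5 with limma, which called 2 higher. Over all genes, higher and lower calls were 1213 and 1240 with DESeq2, 1157 and 1488 without a filter and 608 and 543 with limma. The cause of these moves was not tested.

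Values that changed sign with the leukocyte scaling were *Tgfb1* -0.21, *Tgfb3* -2.13, *Tgfbr1* -1.65, *Tgfbr2* -1.63, *Smad3* -0.94, *Smad7* -0.98, *Smad4* -2.17, *Itgav* -1.33, *Nrros* -1.02, *Furin* -0.34, *Ski* -1.51, *Skil* -1.93 and *Ldlrad4* -1.16. With the keratinocyte scaling they were *Tgfb2* 1.36, *Tgfbr3* 1.69, *Smad2* 1.66, *Itgb8* 0.012, *Itgb6* 0.98, *Lrrc32* 0.95, *Acvr1b* 0.88, *Eng* 1.07, *Thbs1* 0.58 and *Zfyve9* 0.27. Values near 0 changed sign with some libraries left out, where *Tgfbr3* ranged from -0.36 (without pool 2) to 0.021 (without pool 7), *Smad2* from -0.23 (without pool 7) to 0.13 (without pool 2) and *Smad4* from -0.034 (without WT pool 5) to 0.085 (without WT pool 13). *Smad2* was also 0.018 with thinning, and *Smad4* -0.035 without a filter, -0.0071 with at least 10 counts and -0.00038 with limma. Depth was lowest in pool 2 (8050562 counts), where *Itgb8* had 41 counts. Under thinning of all libraries to that depth, *Itgb8* was called lower (-1.50, adjusted p = 0.042, edgeR). Thinning left pool 2 as it was, so the part of its depth in this value was not tested.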

Other observations

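Other genes of the 5 pathway lists, counted above but not described, are given here, each named after its values were seen. *Itgb3*, a beta chain that also pairs with the *Itgav* product, had 34.8, 101 and 83.2 CPM in WT and 221 and 228 CPM in the libraries labelled *Rag1*-/- (log2 fold change 1.65, adjusted p = 0.0608, edgeR's quasi-likelihood test), so that the integrin genes *Itgb3* and *Itgb8* differed in sign with TMM scaling. *Acvr2a*, a type II activin receptor, had 84.8, 162 and 127 CPM in WT and 337 and 165 CPM in pools 2 and 7 (1.03, adjusted p = 0.133, edgeR). *Bmp7* had 45.3 to 51.6 CPM and 62.4 and 62.7 CPM (0.42, adjusted p = 0.182, edgeR), and *Bmp4* had 12.2 to 15.6 CPM and 4.84 and 7.81 CPM (-1.11, adjusted p = 0.079, edgeR). *Id2*, an inhibitor of E proteins that all innate lymphoid cells need, had 131 to 347 CPM and 775 and 1013 CPM (1.80, adjusted p = 0.0503, edgeR), while *Id1* had 145 to 164 CPM and 36.4 and 120.2 CPM and *Id3* had 284 to 337 CPM and 97.4 and 250.4 CPM. None of these genes was called. *Foxp3*, the factor of regulatory T cells, was at 0.232 to 1.24 CPM in WT and at 2.73 and 0.745 CPM in the other group.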
